A study of Mus musculus with 144 samples.

Results

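The response of cultured mouse hepatocytes to the first 2 h of TCDD (2,3,7,8-tetrachlorodibenzo-p-dioxin) was taken from the 16 RNA-Seq libraries of 1 of 9 time points, each of which holds 16 libraries. They were chosen by their labels, which give hour 2 and, for 8 of them, 10 nM TCDD, and for the other 8 the vehicle, DMSO (dimethyl sulfoxide). The cells were primary hepatocytes of male mice that the labels give as 28 days old, on the C57BL/6NCrl background. Each treatment held 4 libraries of the label WT and 4 of the label DRE-null, so there were 4 groups: WT with DMSO (libraries P172_01 to P172_04), WT with TCDD (P172_37 to P172_40), DRE-null with DMSO (P172_73 to P172_76) and DRE-null with TCDD (P172_109 to P172_112). DRE-null is the line the study calls PkmΔDRE, which carries a homozygous deletion of the 5-base core of a dioxin response element in an intron of Pkm, in every tissue, and wild-type and DRE-null cells alike were plated, left to attach and dosed in culture medium with dexamethasone. The labels give no replicate number and do not say whether the 4 libraries of a group came from separate mice or cultures, so the p-values measure the spread between these libraries.

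TCDD is the prototype ligand of the aryl hydrocarbon receptor (AHR), a transcription factor that waits in the cytosol with the chaperone HSP90 and the cochaperone p23. Once it has bound its ligand, the receptor moves to the nucleus, pairs with ARNT and binds dioxin response elements, whose core reads GCGTG. In the liver the best known targets are the cytochrome P450 genes Cyp1a1 and Cyp1a2, whose products oxidize polycyclic aromatic compounds, and the genes of 2 feedback inhibitors, Ahrr and Tiparp.

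The pair Cyp1a1 and Cyp1a2 and the feedback gene Tiparp are shown by their promoters, because Cyp1a1 and Tiparp ranked first among the AHR targets by p and Cyp1a2, which did not pass, is the neighbour of Cyp1a1. The sequences are the 250 bases before the annotated start in RefSeq, build GRCm38.p6, written 5′ to 3′ on the strand of the gene. The core GCGTG, or its reverse complement CACGC, is in capitals. Cyp1a1 lies on the plus strand at chr9:57697363-57697612, Cyp1a2 on the minus strand at chr9:57683656-57683905, and Tiparp on the plus strand at chr3:65528197-65528446.
Cyp1a1: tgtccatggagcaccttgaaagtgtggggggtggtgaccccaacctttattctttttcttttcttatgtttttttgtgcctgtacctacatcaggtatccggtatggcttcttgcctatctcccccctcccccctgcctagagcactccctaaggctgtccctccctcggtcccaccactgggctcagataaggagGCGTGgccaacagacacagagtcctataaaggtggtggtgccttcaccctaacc
Cyp1a2: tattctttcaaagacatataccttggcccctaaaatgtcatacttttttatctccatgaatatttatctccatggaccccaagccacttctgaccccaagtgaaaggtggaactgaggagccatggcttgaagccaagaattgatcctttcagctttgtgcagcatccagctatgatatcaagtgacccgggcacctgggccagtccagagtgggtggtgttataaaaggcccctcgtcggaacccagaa
Tiparp: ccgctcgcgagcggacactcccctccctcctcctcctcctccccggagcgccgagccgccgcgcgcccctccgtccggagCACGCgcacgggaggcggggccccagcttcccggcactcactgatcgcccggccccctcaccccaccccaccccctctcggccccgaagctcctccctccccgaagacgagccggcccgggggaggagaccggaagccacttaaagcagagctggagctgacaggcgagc

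Cyp1a1 and Cyp1a2 are neighbours in opposite orientation, and their starts are 13.958 kb apart. The Cyp1a1 window held 1 core, on the strand of the gene and beginning 54 bases before the start. The Tiparp window held 1 core on the opposite strand, beginning 170 bases before the start, and the Cyp1a2 window held none. Over the full windows of 300 bases, which run to 50 bases after the start, the promoters of Nfe2l2 and Nqo1 held no core, that of Cyp1b1 held 1 and that of Ahrr held 3. Searched on both strands, the core was in 32.4% of all 32851 RefSeq promoter windows and in 49.2% of the 12341 windows of genes tested here, so a core in a window is common and is a description of the sequence, not a binding site.

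Pairs of reads on genes ran from 15636067 to 25068992 per library. Library P172_40 (WT label, TCDD) stood apart from the others of its group. On the first principal component, which held 49.8% of the variance, it lay at −110.8, while the other 3 libraries of its group lay at 36.4 or above. The vehicle libraries ran from −75.2 to 23.7, so library P172_40 lay on their side. Its summed level of NF-kB and acute phase genes was 35122 CPM (counts scaled to a common library size) against at most 15761 CPM in any vehicle library. Values are therefore given with all 16 libraries and with library P172_40 left out, which was chosen with its levels known. Another measure moved with the treatment. The share of uniquely mapped pairs that fell on no gene, called the off-gene share here, was 3.95% to 5.51% in the vehicle libraries and 3.70% to 11.3% in the TCDD libraries, with 6 of 8 TCDD libraries above the highest vehicle library. The number of genes detected was likewise above the highest vehicle library, 17878, in 6 of 8 TCDD libraries.

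**Figure D1:**
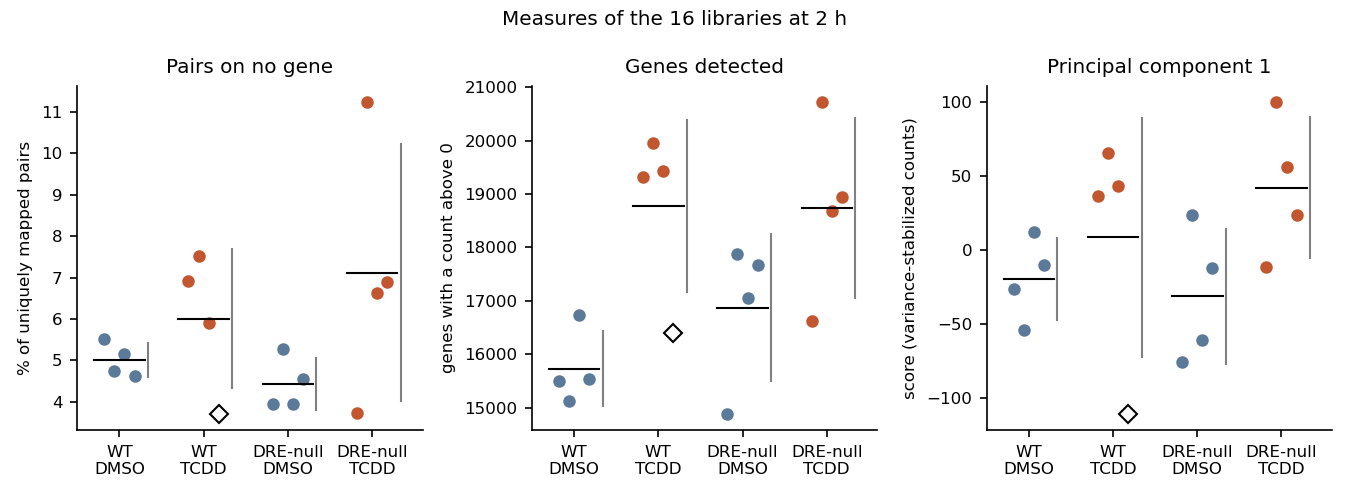
Off-gene share of pairs in percent, number of genes detected and score on the first principal component (y) of each of the 16 libraries at 2 h by group (x), with DMSO in blue and TCDD in orange, lines at the mean of 4 libraries, grey bars of 1 SD to each side and library P172_40 as an open diamond. Library P172_40 lies at −110.8 on the first principal component and has the lowest off-gene share, 3.70%, while library P172_110 has the highest, 11.3%.

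Cyp1a1 (ENSMUSG00000032315), the AHR target most used as a readout of ligand exposure, was the clearest response at 2 h. It was at 2.15, 0.553, 1.03 and 3.57 CPM in WT cells with DMSO and at 14.2, 19.1, 3.97 and 0.791 CPM in WT cells with TCDD, the last being library P172_40. In DRE-null cells it was at 0.623, 2.12, 0.712 and 0.528 CPM with DMSO and at 13.62, 13.96, 11.12 and 6.61 CPM with TCDD. Thus 7 of 8 TCDD libraries lay above the highest vehicle library, and library P172_40 lay among the vehicle libraries. Over 16 libraries the log2 fold change was 2.92 (SE 0.56), with an unadjusted p of 7.57e-05 and an adjusted p of 0.237 in edgeR's quasi-likelihood test. Without library P172_40 the log2 fold change was 3.18 (SE 0.44, adjusted p = 0.0112 in the same test), and Cyp1a1 had the smallest p of all 12749 genes tested.

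**Figure D2:**
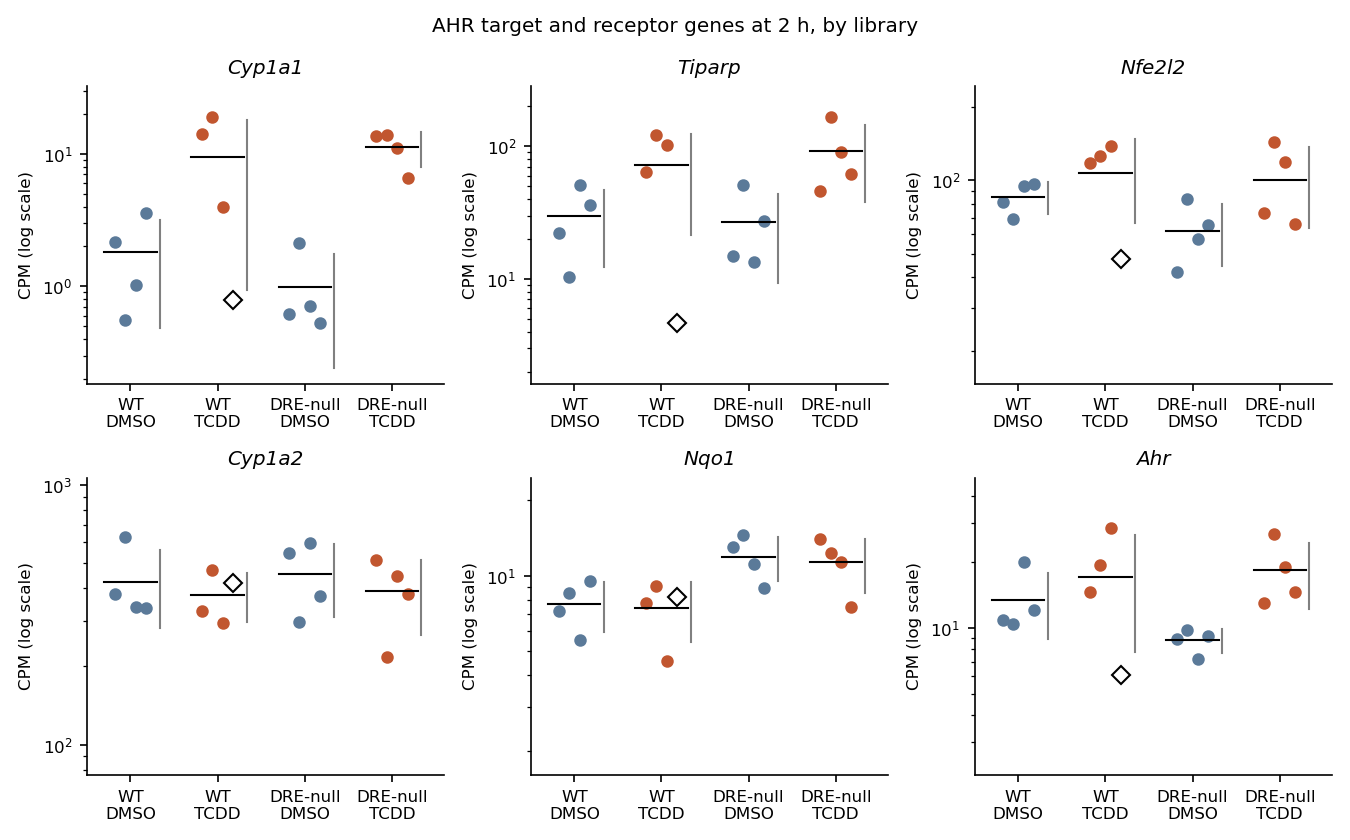
Level of AHR genes in each library on a log10 axis of CPM, by group, with DMSO in blue and TCDD in orange. Lines are the mean of 4 libraries, grey bars reach 1 SD to each side, and the open diamond is library P172_40. Cyp1a1 in 7 TCDD libraries is at 3.97 CPM or more, above the highest vehicle library at 3.57 CPM, while the groups of Cyp1a2 overlap.

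A gene was called when its adjusted p was under 0.05 and its fold change at least 1.5. Over 16 libraries 0% of the 12474 genes tested were called, which leaves no call in the AHR battery, a list of 17 genes that ligand-bound AHR is known to induce. Without library P172_40, 12.7% of the 12749 genes tested were called higher with TCDD and 0.0549% lower, and 3 of the 9 battery members that could be tested were called higher, namely Cyp1a1, Tiparp and Nfe2l2. The median log2 fold change of the 9 members was −0.0024 without library P172_40, against −0.04 over all genes tested. The other 8 members, among them Ahrr, Aldh3a1, Cyp1b1, Cyp2s1, Fmo2, Lekr1 and Ugt1a6a, had too few counts to be tested.

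Tiparp (ENSMUSG00000034640) encodes an ADP-ribosyltransferase that modifies AHR and limits its activity. Its level was 22.1, 10.4, 50.6 and 35.9 CPM in WT cells with DMSO and 63.8, 120.7, 101.6 and 4.65 CPM with TCDD, library P172_40 again last and lowest of all 16. The DRE-null libraries had Tiparp at 14.9, 50.8, 13.5 and 27.4 CPM with DMSO and at 46.1, 167.2, 91.1 and 61.8 CPM with TCDD. The TCDD libraries other than library P172_40 overlapped the vehicle libraries through library P172_109 alone. The log2 fold change was 1.54 (SE 0.50, unadjusted p = 0.00676) over 16 libraries and 1.77 (SE 0.36, adjusted p = 0.0118 in edgeR's test) without library P172_40.

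Nfe2l2 (ENSMUSG00000015839) encodes NRF2, the activator of antioxidant genes. It was at 81.3, 69.1, 95.2 and 96.2 CPM in WT cells with DMSO and at 117.6, 126.1, 138.6 and 47.6 CPM with TCDD. Under the DRE-null label it was at 41.9, 84.1, 57.4 and 65.6 CPM with DMSO and at 73.3, 143.4, 119.3 and 66.2 CPM with TCDD, so that 5 of 8 TCDD libraries lay above the highest vehicle library. The log2 fold change was 0.51 (SE 0.22, unadjusted p = 0.032) with all libraries and 0.67 (SE 0.18, adjusted p = 0.0196 in edgeR's test) without library P172_40.

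The other battery members were not called. Cyp1a2, which shares its locus with Cyp1a1, was at 436.2 ± 131.1 CPM (SD, n = 8) with the vehicle and 383.1 ± 98.5 CPM (SD, n = 8) with TCDD, a log2 fold change of −0.19 (SE 0.20, unadjusted p = 0.346 in edgeR's test). Its groups overlapped, with the vehicle libraries at 295.8 to 627.1 CPM and the TCDD libraries at 218.1 to 511.2 CPM. Nqo1, a quinone reductase, had a log2 fold change of −0.07 (SE 0.19), Xdh, xanthine dehydrogenase, of −0.01 (SE 0.09), and Gsta1, a glutathione S-transferase, of 0.01 (SE 0.29). Ugt1a6b, a glucuronosyltransferase, had −0.10 (SE 0.16), and since genes of the Ugt1a locus share exons, its count is uncertain. Ugdh, which makes the glucuronic acid donor, had 0.47 (SE 0.27) over 16 libraries and 0.63 (adjusted p = 0.102 in edgeR's test) without library P172_40.

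The genes of the feedback inhibitor AHRR and of CYP1B1 were close to the limit of counting. Ahrr had 3, 5, 0 and 0 pairs in the WT libraries with TCDD and 0, 5, 6 and 0 pairs in the DRE-null libraries with TCDD, and of the vehicle libraries 1 had 3 pairs and the other 7 had 0. Cyp1b1 had 1 and 5 pairs in libraries P172_37 and P172_38, 2 pairs in vehicle library P172_74 and 0 in the rest. A change of these genes was not detectable at this depth.

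Of the 14 genes listed for the receptor's own machinery, 13 were tested. Without library P172_40, 7 of them were called higher and none lower, against 12.7% called higher among all genes, with a list median of 0.76 against −0.04 over all genes tested. After each library's trend of counts on GC content was removed (GC trend removed hereafter), 5 were called higher and 1 lower, and the list median was 0.16. Under that setting 630 of all 12749 genes tested were called higher and 892 lower, with a median of −0.11 over all genes. Ahr itself had a log2 fold change of 0.90 (SE 0.21, adjusted p = 0.0139 in edgeR's test) and ran from 7.21 to 19.97 CPM with the vehicle and from 12.9 to 28.6 CPM with TCDD in the remaining 7 libraries, so its groups overlapped. Ahr had 0.45 (adjusted p = 0.0662) with the GC trend removed and was no longer called. The coactivators Ncoa1, Ncoa2, Crebbp and Ep300 had log2 fold changes of 1.21, 1.02, 1.11 and 1.13, and Sp1, a factor that acts beside AHR at promoters, had 0.76. The 4 coactivators were still called with the GC trend removed, while Sp1 was at 0.0068 (adjusted p = 0.981). The partner Arnt had −0.03 (SE 0.13), Ptges3, which encodes p23, 0.12 (SE 0.20), and the coactivators Ncoa3 and Med1 had 0.21 and 0.54, none of which passed. Ptges3 was called lower with the GC trend removed (−0.71, adjusted p = 0.00805 in the same test).

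The HSP90 genes differed from each other. Hsp90aa1, the heat-inducible form, was at 24.2, 17.6, 28.2 and 46.7 CPM in WT cells with DMSO and at 116.1, 199.8, 34.4 and 3.66 CPM with TCDD. In DRE-null cells it was at 17.2, 118.5, 14.5 and 49.01 CPM with DMSO and at 65.4, 357.5, 166.8 and 124.1 CPM with TCDD, so that 4 of 8 TCDD libraries were above the highest vehicle library. Its log2 fold change without library P172_40 was 1.96 (SE 0.48, adjusted p = 0.016 in edgeR's test), whereas Hsp90ab1, the constitutive form, had −0.14 (SE 0.15).

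Hepatocyte genes were abundant in both treatments. Albumin (Alb) was at 63336 to 110351 CPM with the vehicle and at 57390 to 110374 CPM with TCDD. Of the markers of other liver cells, all 9 of Kupffer cells and all 7 of endothelial cells were tested. None was called over 16 libraries, where 0% of all genes were. Without library P172_40 none was called either, against 12.7% of all genes called higher. The median GC content of both marker lists was 51.5%, and of genes at 48.0% to 51.6% GC 4.40% were called higher. Their summed levels were 118.6 to 270.9 CPM and 231 to 371 CPM in the vehicle libraries. In the TCDD libraries these levels were 86.6 to 311 CPM and 160 to 353 CPM. Of the 9 Kupffer cell markers, 1 was called lower with the GC trend removed, beside 892 of all 12749 genes tested. The summed level of 7 lymphocyte and neutrophil markers was 0.19 to 1.09 CPM with the vehicle (median 0.376) and 0.148 to 1.95 CPM with TCDD (median 1.28), and Ptprc, the leukocyte common antigen and the 1 member tested, had a log2 fold change of 1.97 (adjusted p = 0.0865 in edgeR's test) without library P172_40. The 5 erythroid markers summed to 106.2 to 229.6 CPM with the vehicle and 79.7 to 199.9 CPM with TCDD, nearly all of it Alas2, while each haemoglobin gene was below 1 CPM in every library. The part of other cell types in the results was not tested. In bulk libraries fewer cells of a type and less RNA per cell cannot be told apart.

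Across all genes the balance of the calls was one-sided. Over 16 libraries, 1910 of 12474 genes (15.3%) had an unadjusted p under 0.05, of which 1604 were higher and 306 lower with TCDD, and the smallest adjusted p was 0.237. DESeq2's Wald test called 263 genes in the same libraries, 261 of them higher. Without library P172_40, 1613 genes were called higher and 7 lower. With each library's trend of counts on GC content removed the split was 630 higher against 892 lower, so the one-sidedness depended on that step, and 618 of the 1613 genes were still called higher. None was called with that off-gene share as a covariate, or with 1 surrogate variable, while 1076 and 1226 genes had an unadjusted p under 0.05.

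**Figure D3:**
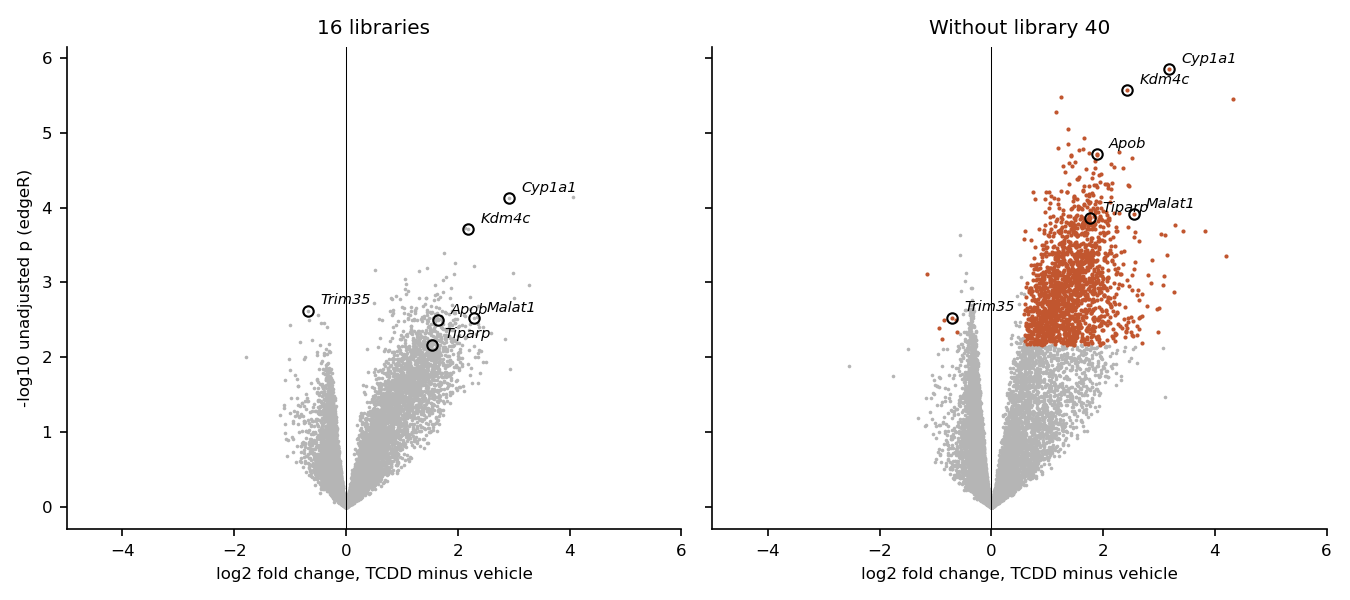
Log2 fold change of TCDD against vehicle (x) and −log10 of the unadjusted p (y) for each gene tested, with all 16 libraries and without library P172_40, genes called in orange. Without library P172_40 the called genes, 1613 higher and 7 lower, lie almost wholly on the right, and none is called with 16 libraries.

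The groups did not overlap in 0% of the genes with all 16 libraries. Without library P172_40, the 7 TCDD libraries lay above all 8 vehicle libraries for 0.306% of genes, 39 in number, and below them for 17. All 39 were among the genes called higher, which is no separate evidence, since both lists come from the same counts. Cyp1a1 was one of the 39, and so were Kdm4c, Rgs5, Ice2 and Yod1 of the genes named next.

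Genes were next ranked by unadjusted p over 16 libraries. The ranking was limited to genes of at least 1 CPM in a treatment group, of the same sign under both labels and not predicted. Its first 10 among those higher with TCDD were Cyp1a1, Rgs5, Kdm4c, Rsbn1l, Npat, Ice2, Yod1, Zfp655, Chd7 and Hltf. None of these was called over 16 libraries, and without those limits Cyp1a1 ranked 2 of 12474 genes. All 10 were called without library P172_40. Kdm4c, a histone lysine demethylase, was at 1.01, 0.922, 0.915 and 0.473 CPM in WT cells with DMSO and at 2.91, 3.91, 4.48 and 0.296 CPM with TCDD. The DRE-null libraries had it at 0.283, 1.06, 0.489 and 0.791 CPM with DMSO and at 2.19, 7.69, 3.93 and 1.92 CPM with TCDD. Library P172_40 was again the exception among the TCDD libraries, and without it the log2 fold change was 2.42 (SE 0.36, adjusted p = 0.0112 in edgeR's test). With the GC trend removed it was 1.65 (adjusted p = 0.0064).

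Rgs5, a regulator of G protein signalling that marks pericytes and stellate cells, was at 0.316, 0.123, 0.114 and 0.105 CPM in WT cells with DMSO and at 1.43, 1.55, 1.37 and 0.148 CPM with TCDD. Under the DRE-null label it was at 0.397, 0.759, 0.400 and 0.264 CPM with DMSO and at 1.25, 1.48, 1.26 and 1.76 CPM with TCDD. Its log2 fold change without library P172_40 was 2.28 (SE 0.39, adjusted p = 0.0118 in edgeR's test). Of the 5 stellate cell markers that could be tested it was the only one called, against 12.7% of all genes called higher. Rgs5 had 1.35 with the GC trend removed and was still called, and Dcn, another of the 5, was called lower (−1.17). Of all 12749 genes tested, 630 were called higher and 892 lower under that setting. The stellate markers Des and Lrat were below 1 CPM in every library, while Reln and Dcn were higher. Reln was at 5.96 to 12.2 CPM with the vehicle and 4.89 to 18.9 CPM with TCDD. Dcn was at 1.91 to 7.50 CPM with the vehicle and 3.71 to 6.72 CPM with TCDD. The summed level of all 9 stellate markers was 9.39 to 20.03 CPM with the vehicle and 9.54 to 27.9 CPM with TCDD.

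Ice2, a subunit of the little elongation complex that serves small nuclear RNA genes, had a log2 fold change of 2.51 (SE 0.44) without library P172_40. Npat, the coactivator of histone genes, had 2.15 (SE 0.40), and Hltf, a DNA translocase, 3.10 (SE 0.67). Chd7, a chromatin remodeller, had 1.501 (SE 0.26) and was at 7.48 to 14.2 CPM with the vehicle and at 12.3 to 50.4 CPM in the 7 TCDD libraries. Yod1, a deubiquitinase, had 1.65 (SE 0.27), and with the GC trend removed it fell to 0.48 and was no longer called. The zinc finger gene Zfp655 had 0.59 (SE 0.13), and its direction turned to −0.45 (adjusted p = 0.131 in edgeR's test) with the GC trend removed.

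Genes lower with TCDD moved less. Under the same limits, the 10 with the smallest unadjusted p over 16 libraries were not called there. Without library P172_40, 8 of them had an adjusted p under 0.05, and only Trim35 also passed the fold change threshold. Trim35, a ubiquitin ligase, was at 4.17, 4.42, 3.83 and 4.10 CPM in WT cells with DMSO and at 2.62, 2.16, 1.64 and 2.82 CPM with TCDD. In DRE-null cells it was at 4.02, 4.35, 3.51 and 2.85 CPM with DMSO and at 3.50, 2.24, 2.05 and 2.40 CPM with TCDD. Here library P172_40 lay with the other TCDD libraries, and only library P172_109 reached into the vehicle range. The log2 fold change was −0.69 (SE 0.19, unadjusted p = 0.00239) with all libraries and −0.70 (SE 0.20, adjusted p = 0.0301 in edgeR's test) without library P172_40.

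The RNA-binding protein gene Hnrnpab did not overlap between the groups without library P172_40. It was at 169.8, 196.3, 145.9 and 150.1 CPM in WT cells with DMSO and at 121.8, 123.8, 105.3 and 158.2 CPM with TCDD, and in DRE-null cells at 145.1, 155.2, 149.6 and 135.9 CPM against 125.6, 116.3, 122.8 and 108.3 CPM. Its log2 fold change was −0.37 (SE 0.10, adjusted p = 0.0187 in edgeR's test), short of the fold change threshold. The splicing factors Srsf9 and U2af1 had −0.56 and −0.32, the amino acid transporter Slc7a1 −0.42, and Armc5, Zkscan17 and Ccdc9 −0.56, −0.38 and −0.39, all with an adjusted p under 0.05 and none past the fold change threshold, while Cdca7 and Stoml1 had −0.59 and −0.61 and did not pass. The 7 genes called lower were Lor (−1.16), which encodes loricrin, Zfp775 (−0.93), Cbr3 (−0.85), a carbonyl reductase, Trim35, Orai3 (−0.63), a calcium channel, Nfkbil1 (−0.61) and ENSMUSG00002075524 (−0.87).

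What the called genes shared was base composition and length. The genes called higher without library P172_40 had a median GC content of 42.9% against 49.8% over all genes tested, and a median longest transcript of 5182 bases against 3234. Ordered by GC content in quintiles, 39.7% of the most AT-rich quintile were called higher, then 18.4%, 4.40%, 0.747% and 0.118%. The median log2 fold change fell along the same quintiles from 0.91 to −0.21. By transcript length the share ran the other way, from 1.45% of the shortest quintile to 32.2% of the longest. The core GCGTG was in 52.3% of the 1568 promoter windows of genes called higher and in 48.8% of the 10773 of genes tested and not called higher. The part of GC content, length or the off-gene share in the calls was not tested beyond removing the trends and using that share as a covariate.

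**Figure D4:**
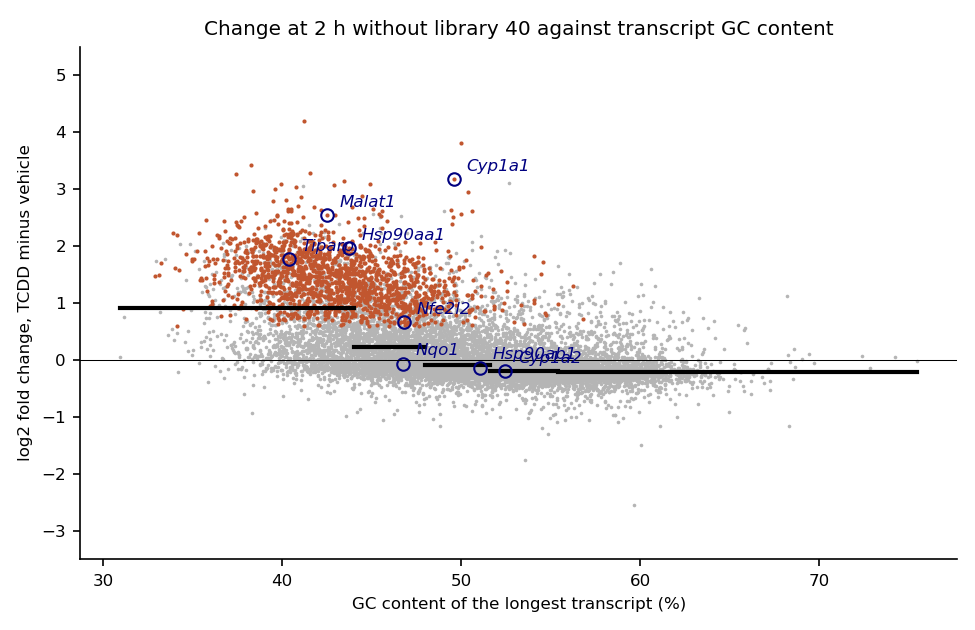
Log2 fold change without library P172_40 (y) against GC content of the transcripts in percent (x) for each gene tested, genes called in orange, with a black bar at the median of each quintile. The medians fall from 0.91 in the most AT-rich quintile to −0.21 in the most GC-rich, and Cyp1a1, at 49.6% GC, lies far above the bar of its quintile.

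The AHR genes stood differently against this trend. Cyp1a1, at 49.6% GC, was in the middle quintile, where the median log2 fold change was −0.08 and 2 of 2544 genes had a larger one. With the GC trend removed its log2 fold change was 3.06 (adjusted p = 0.00446 in edgeR's test). Tiparp, at 40.4% GC, was in the most AT-rich quintile, where 359 of 2544 genes had a larger log2 fold change, and with the GC trend removed its value was 0.76 (adjusted p = 0.0106 in the same test). Nfe2l2 fell to 0.30 (adjusted p = 0.0987) and was no longer called. With the off-gene share as a covariate Cyp1a1 had a log2 fold change of 2.95 (adjusted p = 0.184) and Tiparp 1.07 (adjusted p = 0.633).

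Among gene groups without library P172_40, AHR aside, the highest share of calls was in nuclear retained noncoding RNAs, where 3 of the 4 tested were called higher, against 12.7% of all genes (list median 1.69). Malat1, a long noncoding RNA of nuclear speckles, was at 91.8, 28.2, 54.4 and 112.2 CPM in WT cells with DMSO and at 413, 637, 84.3 and 7.66 CPM with TCDD. The DRE-null libraries had it at 59.7, 223, 65.6 and 171 CPM with DMSO and at 99.8, 1497, 786 and 728 CPM with TCDD. The TCDD libraries thus spread far more than the vehicle libraries, with library P172_40 lowest of all 16. Kcnq1ot1, the noncoding RNA of an imprinted domain, had a log2 fold change of 2.65, Malat1 2.54 and Neat1, the scaffold of paraspeckles, 0.84, while Snhg12 had 0.08. With the GC trend removed Malat1 (1.63) and Kcnq1ot1 (1.501) were still called and Neat1 was not.

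Genes with a Zfp symbol, most of them zinc finger repressors, were called higher in 58 of 243 tested (23.9%, against 12.7% of all genes) and lower in 1, with a list median of 0.55. Zfp329 had a log2 fold change of 2.54 (SE 0.74) and Zfp120 of 2.51 (SE 0.78). With the GC trend removed 10 were called higher and 10 lower, beside 630 higher and 892 lower of all 12749 genes tested. Of the 11 genes of the mitochondrial genome that were tested, all 11 had a positive log2 fold change (list median 0.25). Of these, mt-Nd5 (0.79) and mt-Nd6 (0.60), subunits of complex I, were called higher and none lower. With the GC trend removed their values were −0.62 and −0.96 and 9 of the 11 genes were called lower. The direction of these genes thus depended on that step.

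Metabolic genes were for the most part not called, where 12.7% of all genes were called higher. Of the hepatocyte genes, 1 of 23 was called higher: Apob, the apolipoprotein of very low density lipoprotein, which has a long transcript. It was at 199 to 749 CPM with the vehicle and at 597 to 2186 CPM in the 7 TCDD libraries, with library P172_40 at 73.1 CPM, and its log2 fold change was 1.88, or 1.18 with the GC trend removed. None of 18 glycolysis genes was called (list median −0.27), with Gapdh at −0.24 (SE 0.17) and Ldha at −0.28 (SE 0.16). Dld, the lipoamide dehydrogenase, was the 1 called of 21 genes of the TCA cycle (1.57), and Rpe the 1 called of 8 pentose phosphate genes (0.94). Rpe turned to −0.25 (adjusted p = 0.388 in edgeR's test) with the GC trend removed. Under that setting 4 hepatocyte, 3 TCA cycle and 2 pentose phosphate genes were called lower, beside 892 of all 12749 genes tested. Of 16 genes of cholesterol and lipid synthesis, Idi1 (1.94), Elovl6 (1.28) and Hmgcs1 (1.23) were called higher, the list median being −0.14, and of these Idi1 was still called with the GC trend removed.

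Stress and defence genes gave few calls beside the 12.7% of all genes called higher. Here too the share varied with GC content, and no list was tested against genes of its own GC content. Median GC content was 49.7% in NRF2 and antioxidant, 49.2% in NF-kB and acute phase and 54.3% in stress genes. It was 54.6% in immediate early, 47.5% in interferon-stimulated, 52.2% in p53 target, 52.3% in clock and 50.9% in ribosomal protein genes. Of 25 NRF2 and antioxidant genes Nfe2l2 was called higher and Cbr3 lower, while Hmox1, haem oxygenase, had −0.34 (SE 0.16) and Gclc, the rate-limiting enzyme of glutathione synthesis, 0.61 (SE 0.25), neither of which passed. None of 21 NF-kB and acute phase genes and none of 16 stress and unfolded protein genes was called. In the lists of NRF2 and antioxidant genes, NF-kB and acute phase genes, and stress genes, 3, 3 and 1 were called lower with the GC trend removed. Of all 12749 genes tested, 892 were called lower under that setting. Klf6 (0.85) was the 1 called of 29 immediate early genes, with Fos at −0.04 (SE 0.24) and Jun at −0.12 (SE 0.16). Ifit1 (1.54) and Rsad2 (1.23) were called of 15 interferon-stimulated genes, Trp53inp1 (1.44) of 12 p53 targets, and Clock (1.66) and Nr1d2 (1.67) of 16 clock genes. With the GC trend removed Ifit1 (0.79) and Nr1d2 (0.77) were still called and Klf6, at −0.02, Rsad2, Trp53inp1 and Clock were not. None of 83 cytosolic ribosomal protein genes was called (list median −0.17), and 12 of them were called lower with the GC trend removed.

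**Figure D5:**
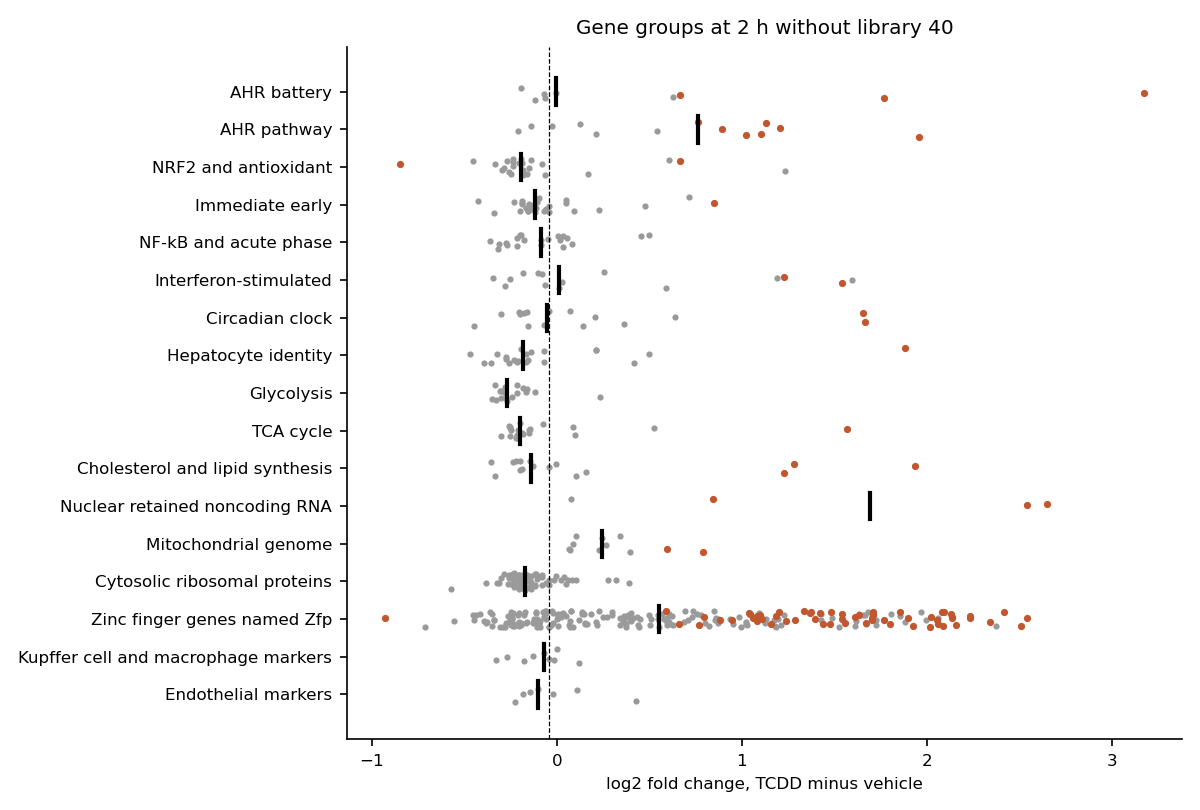
Log2 fold change without library P172_40 (x) of each tested member of the gene lists (y), called genes in orange, with a black bar at each list median and a dashed line at the median of all genes tested, −0.04. The bars of nuclear retained noncoding RNAs at 1.69, the AHR pathway at 0.76 and the Zfp genes at 0.55 lie to the right of the line, and that of glycolysis lies at −0.27.

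The response was then compared between the labels, since the study was designed to ask whether the dioxin response element of Pkm changes the response to TCDD. In the interaction of label and treatment 0% of 13152 genes were called in edgeR's test, 47 whose log2 fold change was higher under the DRE-null label and 62 whose value was lower there had an unadjusted p under 0.05, and DESeq2 called 0 with 152 genes under an unadjusted p of 0.05. For Cyp1a1 the log2 fold change was 2.35 (SE 0.77) in WT libraries, 2.80 (SE 0.62) in WT libraries without library P172_40, and 3.50 (SE 0.81) in DRE-null libraries, and the difference between the labels was 1.15 (unadjusted p = 0.292 in edgeR's test). For Tiparp the difference over the same 16 libraries was 0.52 (unadjusted p = 0.608). The smallest unadjusted p-values were those of Cebpzos (−3.09), Ocstamp (−4.92), Sema3b (2.53), Colec10 (3.97) and Sectm1a (4.72). Pkm was at 63.1 ± 18.1 CPM with DMSO and 48.9 ± 2.74 CPM with TCDD in WT libraries, and at 85.4 ± 70.9 CPM and 78.5 ± 65.4 CPM in DRE-null libraries (SD, n = 4 each). A deletion of 5 intronic bases cannot be seen in gene counts, so the labels could not be checked at 2 h. At 8 h Pkm was at 51.2 ± 16.8 CPM with DMSO and 118.3 ± 17.04 CPM with TCDD in the libraries labelled DRE-null, and at 58.1 ± 15.4 CPM and 43.03 ± 14.01 CPM in those labelled WT (SD, n = 4 each). That order is not the one the labels would give. Gene counts do not separate the isoforms of Pkm, and the study's qRT-PCR of the Pkm2 isoform was not analysed here. An exchange of labels was not tested, and the genotypes are named as the labels give them.

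At 4 h, the next time point, Cyp1a1 was the 1 gene called of 14264 (0.00701%), with a log2 fold change of 5.36 (SE 0.78, adjusted p = 0.00235 in edgeR's test over 32 libraries). Without the WT library P172_44, with TCDD at 4 h, 3 genes were called. Cyp1a1 was at 93.8, 91.1, 229 and 7.69 CPM in WT cells with TCDD, and at 240, 548, 577 and 171 CPM in DRE-null cells with TCDD. The vehicle libraries were at 0.525 to 3.29 CPM under the WT label and at 0.858, 1.54, 3.05 and 42.9 CPM under the DRE-null label, the last being library P172_80. The response at 4 h exceeded that at 2 h by 2.41 (SE 0.98), which did not pass (unadjusted p = 0.0209, adjusted p = 1.00 in edgeR's test). With library P172_80 left out the difference was 3.80 (SE 0.86, unadjusted p = 0.000146, adjusted p = 1.00 in the same test). With library P172_44 left out it was 2.63 (SE 0.92, unadjusted p = 0.00797 in the same test). Neither passed after adjustment. With library P172_40 left out the difference for Cyp1a1 was 2.26 (SE 0.95, adjusted p = 0.955 in edgeR's test). Over all 32 libraries 0% of genes were called in the difference of the responses, with 285 under an unadjusted p of 0.05, and DESeq2 called 0 with 307. Nqo1 and Cyp1a2, which showed no call at 2 h, had log2 fold changes of 0.60 and 0.52 at 4 h and were not called there either.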

How the data were processed

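Libraries were unstranded read pairs from total RNA of cultured hepatocytes. Per the labels and methods, the authors trimmed the reads with Trimmomatic 0.39, checked them with FastQC (the version differs between these sources), aligned them to GRCm39 with STAR 2.7 and deposited raw counts of pairs per gene for each library, with no normalization and no pooling. The total count of both strands (column 2) was used. The lines that name no gene, 24.2% to 30.9% of pairs, entered neither library sizes nor tests. Of 55359 genes, 52083 had a symbol, GC content and longest transcript length from GENCODE M21 (GRCm38), and promoters come from RefSeq GRCm38.p6.

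The 16 libraries were grouped by the labels into 8 with TCDD and 8 with vehicle, with the genotype label as a covariate. Counts were scaled with TMM and filtered with filterByExpr (count minimum 10, total minimum 15), and tested with robust quasi-likelihood F tests in edgeR 4.0.16 (R 4.3.3) with Benjamini-Hochberg adjustment over all genes tested. A call needed a fold change of 1.5 or more and an adjusted p under 0.05. SE is the log2 fold change divided by the square root of F, and CPM uses TMM library sizes over the 16 libraries. The labels' interaction, both labels singly, and the responses at 4 h minus 2 h (32 libraries) used the same tool. The script was tested on simulated data.

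Named genes were the AHR battery, the 10 genes of largest change in each direction among those called, filled by the smallest unadjusted p where none was called (at least 1 CPM in a treatment group, same sign under both labels, no predicted genes), list members, and up to 5 genes of the smallest p in the interaction and in the time comparison. Some list members are counted but not reported here by name. The libraries, lists and rules were chosen with earlier results of these data known. Alternatives were RLE scaling, DESeq2 1.42.0, no filter, no fold threshold, no genotype covariate, covariates, 1 surrogate variable (sva 3.50.0), a posterior probability of at least 0.8 (limma 3.58.1), removed GC and length trends, separate fits, a replicate block and left-out libraries. Those on the 15 libraries without library P172_40, and the joint GC and length trend, were added after the data were seen.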

Additional observations from a re-analysis of the deposited data

Results flagged for a closer look

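Of 348 groups of 4 libraries examined for a library far from the other 3, 17 held one, and chance alone gives about 1 in 20. Library P172_40 (WT, TCDD) accounted for 6 of them. It was lowest on the first principal component (−110.8, the next at 36.4), for Rgs5 (0.148 CPM, the next at 1.37) and for the summed Zfp genes (1938 CPM, the next at 2208). It was highest for Armc5 (17.3 CPM, the next at 11.6), for the summed NRF2 and antioxidant genes (16602 CPM, the next at 12809) and for the summed pentose phosphate genes (1945 CPM, the next at 1292).

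Vehicle libraries accounted for 10. In WT cells with DMSO, Cyp1a2 was highest in library P172_02 (627 CPM, the next at 381), Gsta1 in library P172_04 (23.6 CPM, the next at 14.99), Zfp655 in library P172_04 (36.6 CPM, the next at 27.3), Rgs5 in library P172_01 (0.316 CPM, the next at 0.123) and Hltf in library P172_02 (0.246 CPM, the others at 0). Among summed lists of the same group, the hepatocyte genes were lowest in library P172_01 (125940 CPM, the next at 147773), the mitochondrial genome was highest in library P172_02 (51830 CPM, the next at 45923), and the lymphocyte and neutrophil markers were highest in library P172_03 (1.09 CPM, the next at 0.315). In DRE-null cells with DMSO, Cyp1a1 was highest in library P172_74 (2.12 CPM, the next at 0.712) and the summed Zfp genes were lowest in library P172_73 (2014 CPM, the next at 2186). In DRE-null cells with TCDD the summed glycolysis genes were highest in library P172_109 (17065 CPM, the next at 10298).

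Pairs on no gene are outside the gene counts. Their share lay above the highest vehicle library, 5.51%, in 6 of 8 TCDD libraries, and its part in the calls was not tested beyond its use as a covariate.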

How the results depend on the processing

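Over 16 libraries the count of calls was 0 under every alternative except DESeq2 (263) and without library P172_40. Leaving out 1 library at a time gave 0 to 1620 calls, the latter without library P172_40. Without library P172_40 the count fell to 0 with the off-gene share of pairs as a covariate, to 0 with 1 surrogate variable and to 154 with the posterior probability. Leaving out a second library gave 631 to 2008 calls, with 631 without library P172_38, 739 without library P172_110 and 1003 without library P172_75. It was 2350 with no filter (median log2 fold change of all genes 0.31), 1271 with GC and length trends removed (455 higher, 816 lower) and 1737 with no fold threshold. The order of the libraries as a replicate block gave 0 calls over 16 libraries, 2381 without library P172_40 and 0 in the interaction. The order is no pairing given by the labels, and the correlation of same-order deviations ran from −0.225 to 0.712. The label and time comparisons stayed at 0 under every alternative run. The cause of these differences was not tested.

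Of the AHR battery and the 10 genes named in each direction, under the alternatives, 1348 values kept direction and side, 52 gained the call, 55 lost it and 55 changed sign. With the off-gene share as a covariate over 16 libraries, Cyp1a2 became 0.0704, Ugt1a6b 0.1005, Gsta1 −0.0401, Xdh 0.0284 and Ugdh −0.0642. With 1 surrogate variable Cyp1a2 became 0.113, Xdh 0.0099 and Ugdh −0.073. With the unmapped share as a covariate Nqo1 became 0.0056 and Gsta1 −0.017. With the GC trend removed Gsta1 became −0.1024, Ugdh −0.16 and Zfp655 −0.0764, and with GC and length Gsta1 −0.038, Ugdh −0.286 and Zfp655 −0.046. Xdh became 0.0074 with RLE scaling, 0.0074 with DESeq2, 0.0063 with the posterior probability and 0.0095 with the replicate block. In separate fits Ugt1a6b was 0.0881 and Xdh 0.0726 under the WT label, and Gsta1 −0.0856 under the DRE-null label. Without library P172_40, the off-gene share gave Cyp1a2 0.155 and Ugt1a6b 0.214, and the surrogate variable gave Cyp1a2 0.271, Ugt1a6b 0.0638 and Nqo1 0.0043. The GC trend gave Ugdh −0.258 and Zfp655 −0.454, and GC and length gave Ugdh −0.478 and Zfp655 −0.416. Leaving out 1 library at a time over 16 libraries, Gsta1 ran from −0.117 to 0.148, Xdh from −0.038 to 0.0165 and Nqo1 from −0.13 to 0.0133, and without library P172_40 they ran from −0.245 to 0.0244, −0.0551 to 0.0283 and −0.184 to 0.0374.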
